A study of Mus musculus with 30 samples.

Results

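The 80 genes described here were the genes lowest in brain among 15 adult mouse tissues. They were chosen from the authors' value table by a gap, the level in the lowest of 13 non-brain tissues minus the level in the higher of brain cortex and cerebellum, each tissue being the mean of 2 arrays. The 80 probes with the largest gap were taken from 5621 probes that had a symbol in the study's probe lists, out of 25030 probes in the table. They belong to 80 distinct symbols, of which 54 are current, 20 are synonyms of a current symbol (the current one is used here) and 6 could not be settled. A gap above 0 was found for 430 of the named probes (7.65%) and for 2041 probes of the whole table (8.15%), and 509 probes of the table had a gap at least as large as the smallest among the members, so most genes of this kind carry no name here. The gap, on a log2 scale, ran from 5.01 (Plbd1) to 0.65, with a median of 0.96. Just inside the threshold were Smarce1 (0.66) and Prxl2c (0.65), and just outside it Zfp384 (0.64) and Tor1aip1 (0.63), so the edge of the list is not marked by a step.

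Every sample came from male C57BL/6 mice, with an age of 28 weeks in the labels (the study's methods give a slightly higher one) and no treatment named. Besides brain cortex and cerebellum there were bladder, bone, eyes, fat, heart, kidney, large intestine, liver, lung, muscle, skin, small intestine and stomach. Each had 2 two-color arrays with the tissue RNA in Cy3 and, in Cy5, one common reference, RNA of a pool of mouse cell lines mixed with RNA of ES cells. The study states that the replicates were of different mice, but the series' design text excepts bone and fat, giving them a single replication although 2 arrays carry each label, so the spread of those tissues may be technical. Whole tissues are mixtures, so fewer cells of a type and less RNA per cell cannot be told apart in any value below.

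Neurons and glia make up the brain parenchyma, and fibrillar collagen, contractile cells and lining epithelium are sparse there, mostly confined to vessels, meninges and choroid plexus. The blood-brain barrier keeps most leukocytes out of the parenchyma, where microglia are the resident macrophages. Neurons rely on glucose and ketone bodies and oxidize little fatty acid, while heart, liver and muscle oxidize much of it.

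The level used here is the log2 ratio of tissue over reference, with positive values meaning more RNA in the tissue than in the reference. The brain labels were checked against markers: 8 of 10 neuronal and 4 of 6 glial markers were highest in cortex or cerebellum, and the mean log2 ratio of the neuronal list was 3.56 in cortex, 3.45 in cerebellum, 2.14 in eyes and 1.19 or less elsewhere. The arrays of fat (r = 0.671), large intestine (r = 0.798) and bone (r = 0.848) differed most between replicates, against 0.947 to 0.991 in the other tissues. The 4 brain arrays were scanned on the first 2 of 5 scan days together with eyes, lung, liver, heart, kidney and bladder, whereas the remaining tissues were scanned later, so brain and scan day can be told apart only against those 6 tissues. Both arrays lay on the same slide in cerebellum, eyes, liver, heart, kidney, bladder, skin and stomach. Replicates of these tissues thus hold no spread between slides, and the SE and p values below rest in part on spread within a slide. With slide as a random block the estimated correlation within a slide was 0.69. All 80 members passed the filter on dim probes (the 2 arrays of some tissue had to exceed background), and none lacked a value.

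The brain level was measured, and not only bounded, for most members. In 57 members the tissue signal was well above background on all 4 brain arrays, in 13 on 1 to 3 of them, and in 10 on none. On the non-brain side 65 members were above background on all 26 arrays. The weakest member was 4930471C06Rik, above background on 3 of 26 non-brain arrays and on no brain array, so no fold is given for it. The median member lay 2.04 lower in brain than in the mean of the 13 tissues on the log2 scale. The rule chose the members by the gap, which favors a large difference of this kind, so these values are a description without a test. All 4 brain arrays lay below all 26 other arrays in 67 of 80 members, and the share of all tested probes with arrays apart in this way was not computed. By another criterion, the limma call on tissue means, 15.6% of all 21025 tested probes were lower in brain (30.5% in either direction). Nothing is read from the count of 67, since the rule chose members with brain below the other tissues. In 8 of the 13 other members the array that reached into the brain range was of fat, large intestine or bone, and without those 3 tissues 74 members were apart. Within the first 4 slides, cortex replicate 1 and both cerebellum arrays were below every other array in 77 members, and on the slide shared by cortex replicate 2 and lung replicate 1 the cortex was lower in 79. The rule favored these counts too, so nothing is read from them on slide or scan day. Their share over all probes was not computed.

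**Figure D1:**
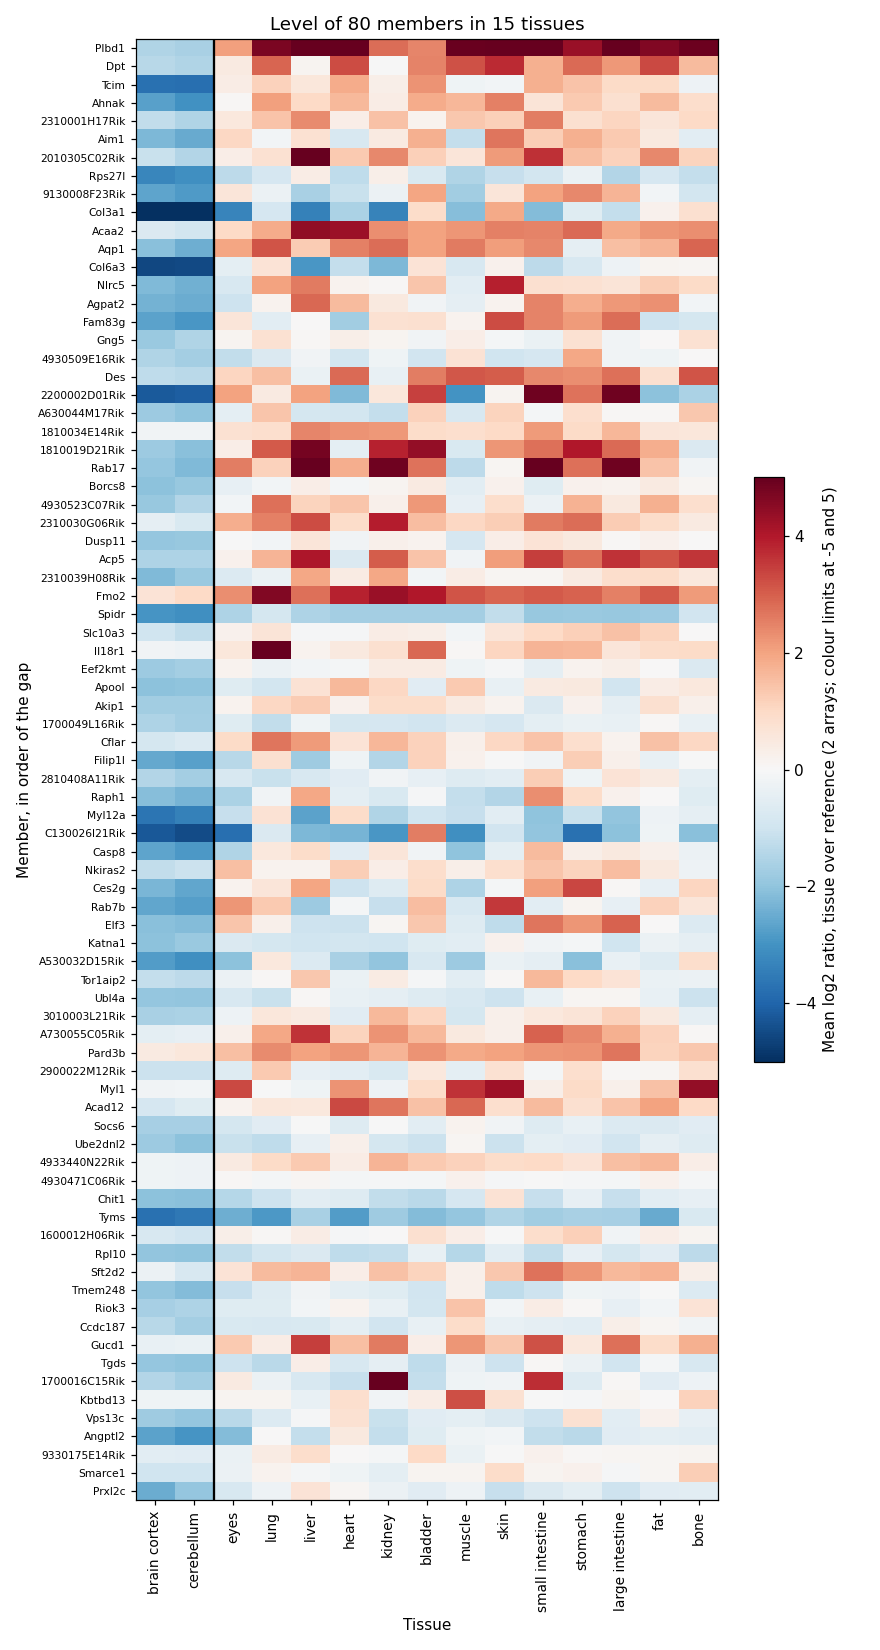
Mean log2 ratio of tissue over reference (color, limits at -5 and 5) of the 80 members (rows, in order of the gap) in 15 tissues (columns). The pair of brain columns left of the line is the bluest of each row except in Myl1 (lower in kidney and liver) and Kbtbd13 (lower in liver), while the 13 other tissues differ widely among themselves.

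Plbd1, which codes for a lysosomal phospholipase B-like protein, had the largest gap. Its log2 ratio was -1.79 and -1.23 in cortex and -1.74 and -1.52 in cerebellum, while the 26 other arrays ran from 1.93 (eyes replicate 2) over a median of 4.95 to 6.58 (small intestine replicate 2). No brain array came near the lowest other array, and the difference from the mean of the 13 tissues was -6.12 (69.4-fold lower). On Cy3 alone, the tissue channel, it was 39.1-fold lower. Tcim, a small regulator of Wnt and NF-kappaB signaling, was at -3.81 and -3.63 in cortex and -3.62 and -3.88 in cerebellum, against -0.47 to 2.56 elsewhere with a median of 0.80. This made it 23.9-fold lower in brain (18.1-fold on Cy3 alone), and here the signal was above background on all 4 brain arrays.

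Members of the matrix group were highest in skin, lung or heart and closest to brain in liver, kidney or eyes. Dpt encodes dermatopontin, a matrix protein that binds decorin and collagen fibrils. It was above background on none of the brain arrays (log2 ratios of -1.61, -1.13, -1.55 and -1.44) and on all 26 others, where it ran from -0.06 in liver replicate 1 over a median of 2.76 to 3.80 in skin replicate 1. Because brain gave only a bound, Dpt was at least 17.6-fold higher in the mean of the 13 tissues and at least 2.23-fold higher in kidney, its lowest tissue, on the scale of the Cy3 level. Col3a1, a fibrillar collagen chain, was at -4.78, -5.28, -5.44 and -5.46 in brain and from -3.63 (liver replicate 1) to 2.19 (bone replicate 2) elsewhere, with a median of -1.29. Col6a3, a chain of the beaded-filament collagen VI, was at -4.61, -4.52, -4.44 and -4.62 in brain and from -2.98 in liver replicate 1 to 1.51 in bone replicate 2, with a median of -0.68. Col3a1 and Col6a3 were thus 17.2-fold and 15.1-fold lower in brain than the mean of the 13. Angptl2, a secreted angiopoietin-like protein, was 4.31-fold lower, and its eyes mean (-2.15) was the lowest outside brain. Beside these values, the 3 fibroblast markers that are not members (Ddr2, Col5a2 and Fmod) had a mean of -1.74 in cortex and -1.85 in cerebellum, -1.84 in liver, -1.18 in kidney, -0.64 in eyes and 1.11 in bone, the highest. Their part in the result was not tested.

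**Figure D2:**
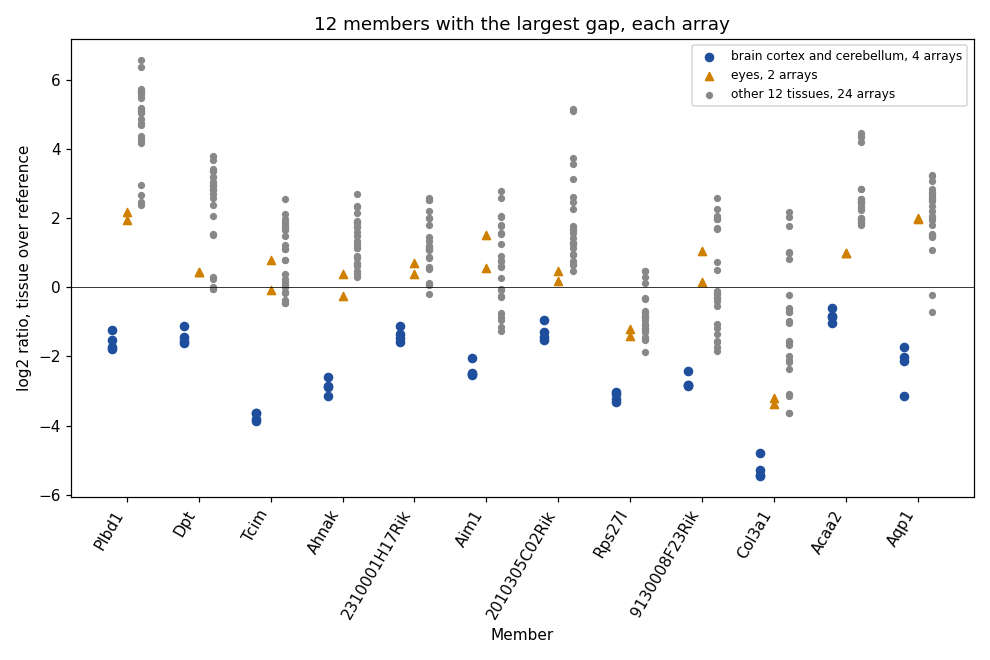
Log2 ratio on each array for the 12 members with the largest gap: 4 brain arrays (blue circles), 2 arrays of eyes (orange triangles) and 24 arrays of the other tissues (gray). In all 12 the brain arrays lie below every other array, as in Plbd1 (brain at -1.23 or lower, others at 1.93 or higher).

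The proximal promoters of a few of these genes are printed next as a description, without a comparison with other genes. The runs below are the 150 bases before the start of the RefSeq transcript (GRCm38.p6), read 5′ to 3′ on the gene's strand. Capitals mark a match on either strand to TATAAA (letters of the TATA box, at any distance from the start), GGGCGG (SP1), CCGGAAG (ETS factors), TGANTCA (AP-1) or GGAATG (TEAD). They are shown for the leading gene, for members of the matrix, cytoskeletal and muscle groups and for Tyms. Plbd1 lies on the minus strand at chr6:136661894-136662043, Dpt on the plus strand at chr1:164796513-164796662, Ahnak on the plus strand at chr19:8989134-8989283, Col3a1 on the plus strand at chr1:45311388-45311537, Myl1 on the minus strand at chr1:66945057-66945206 and Tyms on the minus strand at chr5:30073626-30073775.
Plbd1: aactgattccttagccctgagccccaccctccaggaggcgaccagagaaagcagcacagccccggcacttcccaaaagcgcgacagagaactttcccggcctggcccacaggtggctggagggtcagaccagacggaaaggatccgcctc
Dpt: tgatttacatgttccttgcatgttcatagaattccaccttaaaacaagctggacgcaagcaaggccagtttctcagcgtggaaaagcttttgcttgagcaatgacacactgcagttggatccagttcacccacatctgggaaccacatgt
Ahnak: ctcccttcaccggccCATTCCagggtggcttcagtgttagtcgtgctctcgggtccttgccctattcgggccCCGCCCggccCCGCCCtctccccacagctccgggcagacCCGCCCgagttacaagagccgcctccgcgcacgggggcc
Col3a1: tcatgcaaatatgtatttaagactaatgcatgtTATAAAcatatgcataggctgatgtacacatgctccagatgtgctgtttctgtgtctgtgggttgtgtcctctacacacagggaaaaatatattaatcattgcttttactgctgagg
Myl1: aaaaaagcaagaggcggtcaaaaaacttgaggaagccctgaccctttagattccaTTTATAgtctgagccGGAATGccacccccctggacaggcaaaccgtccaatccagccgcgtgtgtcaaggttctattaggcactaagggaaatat
Tyms: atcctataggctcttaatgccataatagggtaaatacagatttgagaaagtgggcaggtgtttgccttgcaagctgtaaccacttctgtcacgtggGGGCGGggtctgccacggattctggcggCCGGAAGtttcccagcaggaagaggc
Ahnak held 3 SP1 matches and 1 TEAD match in this window, Col3a1 a TATA match, Myl1 a TATA and a TEAD match, Tyms an SP1 and an ETS match, and Plbd1 and Dpt no match.

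Ahnak and the contractile genes formed the next group. AHNAK is a very large scaffold protein beneath the plasma membrane that binds actin and annexin complexes. It was at -2.84, -2.58, -3.14 and -2.88 in brain and from -0.25 (eyes replicate 2) over 1.24 to 2.70 (skin replicate 1) elsewhere, 17.4-fold lower in brain (13.2-fold on Cy3 alone). Myl12a, a regulatory light chain of non-muscle myosin, was 5.94-fold lower, and Filip1l, an interactor of filamin, had its lowest non-brain level in liver (-1.77) and its highest in stomach (1.25). Katna1, the microtubule-severing subunit of katanin, had a narrow range outside brain (-1.01 in large intestine to 0.22 in skin), yet its brain mean was -1.95. Katna1 was one of the genes whose brain arrays did not stay apart, as large intestine replicate 2 (-1.86) fell below the highest brain array (-1.83).

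Des, the intermediate filament protein desmin, and Myl1, the alkali light chain of fast skeletal muscle myosin, were both highest in bone by the ratio and in muscle on Cy3 alone. Des was at -1.35, -1.20, -1.34 and -1.34 in brain and ran from -0.45 in liver replicate 1 over 2.50 to 3.19 in bone replicate 1. Myl1 was above background on no brain array and on 17 of 26 others, with means of 4.40 in bone, 4.25 in skin, 3.63 in muscle and 3.30 in eyes. The 5 striated muscle markers that are not members had means of 3.74 in bone, 3.36 in muscle, 2.95 in skin and 1.77 in eyes. They were at -0.16 in cortex and -1.17 in cerebellum, while liver (-1.26) and kidney (-1.61) were lower. The 3 non-members of the smooth muscle list, which holds Des, were at 0.56 in cortex and 0.79 in cerebellum. They were highest in bladder (3.25) and lower than brain in muscle (-0.15), eyes (-0.27) and liver (-0.52), among others. Neither list was thus lowest in brain, and their part in the values of Des and Myl1 was not tested. The reference channel did not stay constant at these spots. At the Myl1 spot the log2 Cy5 level of the common reference ran from 6.22 to 13.51 (highest on muscle replicate 2) and at the Des spot from 8.17 to 13.37, with correlations between Cy3 and Cy5 over the 30 arrays of 0.954 and 0.960. By the Cy3 level Myl1 was at least 9.14-fold lower in brain than the mean of the 13. Des was 9.29-fold lower by the ratio and 27.9-fold by Cy3 alone. The cause of the Cy5 range was not tested. A Cy5 range of 2 or more was found in 6 of the 80 members (Des, Myl1, Dpt, Acp5, Fmo2 and Elf3), and a correlation of 0.5 or more between Cy3 and Cy5 in 18. The brain difference was larger on Cy3 alone than by the ratio in 25 of the 80.

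Immune genes were low in brain with peaks in different organs. Nlrc5, the transactivator of MHC class I genes, was at -2.28, -2.13, -2.30 and -2.51 in brain and from -1.09 in eyes replicate 2 over 1.07 to 4.14 in skin replicate 1. Casp8, the initiator caspase of death receptors, was 6.65-fold lower in brain, and Cflar, its inactive homolog and regulator FLIP, 3.92-fold. Casp8 was lowest outside brain in muscle (-2.0) and highest in small intestine (1.57), whereas Cflar was highest in lung (2.68), so the pair shared the low brain level and not the peak. Acp5, the tartrate-resistant acid phosphatase of osteoclasts and macrophages, ran from -0.82 in heart replicate 1 to 4.1 in liver replicate 2 with brain arrays at -1.44 or lower. On Cy3 alone the log2 level of Acp5 was highest in fat (12.66), followed by bone (12.59), large intestine (12.51) and liver (12.43). Il18r1, a subunit of the interleukin-18 receptor, was at -0.03 or lower on the brain arrays, at 2.75 and 3.0 in bladder and at 5.46 and 6.03 in lung. The leukocyte markers, of which none is a member, were below their non-brain mean in 6 of 6 cases in brain, and the sum of their linear ratios was 3.60 to 4.31 on the brain arrays and 4.03 to 24.4 on the others. All 6 were above background on at least 1 brain array, and their part in the result was not tested.

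The metabolic enzymes, as a group mean, were lowest in eyes outside brain and highest in liver. Acaa2, the mitochondrial thiolase that ends each round of fatty acid oxidation, was at -0.85, -0.59, -1.04 and -0.83 in brain and from 0.98 in eyes replicate 2 over 2.39 to 4.47 in liver replicate 2. It was 9.95-fold lower in brain, and the 4 arrays of liver and heart were above all others. Agpat2, which makes phosphatidic acid on the way to triglyceride, was 10.3-fold lower and had its lowest other level in eyes (-1.04). A second probe of Agpat2 on the array, outside the value table, was 2.90 lower in brain than the mean of the 13 and lowest in eyes (-1.10). The other member with a second probe was the clone 1600012H06Rik, whose second probe differed by -0.48, and there the higher brain tissue (0.19) lay above large intestine (-0.04), so brain was not lowest. Acad12, an acyl-CoA dehydrogenase, peaked in heart (3.30), Fmo2, a flavin monooxygenase, in lung (4.63), and Ces2g, a carboxylesterase that brain arrays did not detect, in stomach (3.34). Tyms, thymidylate synthase of the DNA precursor pathway, was -3.59, -3.85, -3.52 and -3.61 in brain and highest in bone (mean -0.78). It stayed below the reference in every tissue mean.

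The members differed widely in how even they were outside brain. Aqp1, the water channel of kidney tubules, endothelium and choroid plexus, was at -2.14 and -2.01 in cortex and -3.14 and -1.74 in cerebellum. Outside brain it ran from -0.70 in stomach replicate 2 over 2.13 to 3.24 in bone replicate 1, and stomach was its only other tissue with a negative mean (-0.47). Rab17, a small GTPase of epithelial cells, ranged over 6.75 among the 13 tissues, from -1.33 in muscle to 5.42 in small intestine, and 1810019D21Rik (-0.77 in muscle to 4.78 in liver) ranged over 5.55 and 2200002D01Rik (-2.99 in muscle to 4.85 in large intestine) over 7.84. Elf3, an ETS factor of epithelia, was highest in large intestine (2.94) and lowest outside brain in skin (-1.26). At the even end stood Socs6, a suppressor of cytokine signaling (SD over the 13 tissue means of 0.32), Eef2kmt, the methyltransferase of elongation factor 2 (0.33), Spidr, a scaffold of DNA repair (0.34), 1700049L16Rik (0.35) and the barely detected 4930471C06Rik (0.11). Spidr was between -1.90 and -0.88 in the 13 tissue means and at -2.99 in brain. Rps27l, a ribosomal protein paralog, was 5.01-fold lower in brain and lay between -1.52 in muscle and 0.39 in liver. Rps27l, Rpl10, Myl12a, Ces2g and Ube2dnl2 belong to families with close copies, and what each probe binds among the copies could not be checked.

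**Figure D3:**
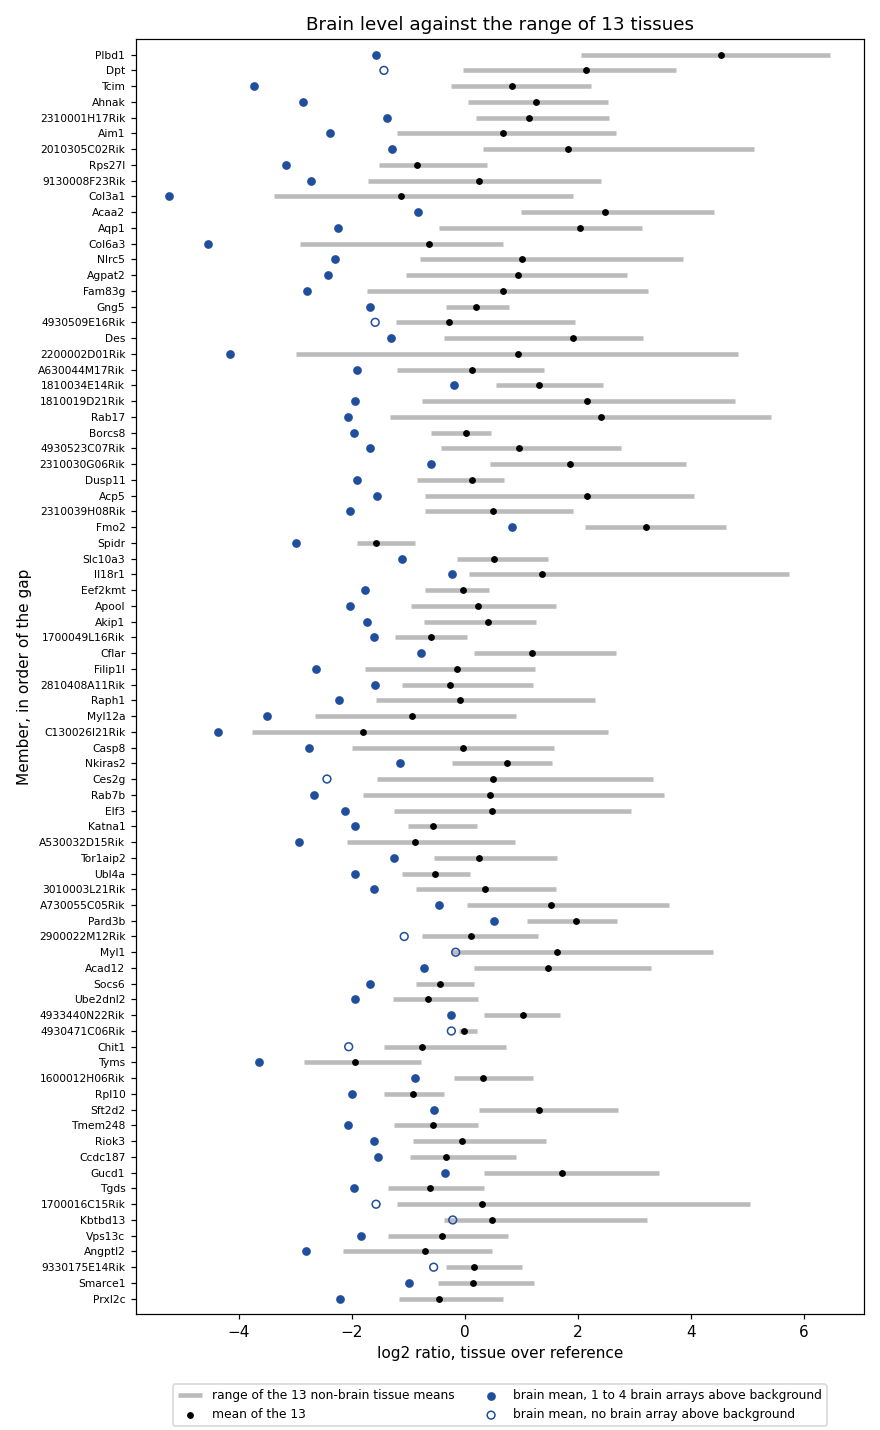
Brain mean (blue; open where no brain array was above background) beside the range (gray bar) and mean (black) of the 13 non-brain tissue means for each member, as log2 ratio. The brain mean lies left of the bar except in Kbtbd13 and Myl1, and the bars run from 0.32 (4930471C06Rik) to 7.84 (2200002D01Rik) long.

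A neighboring pair of members, C130026I21Rik and A530032D15Rik, illustrates how related loci can share the low brain level and differ elsewhere. They lie on the minus strand of chromosome 1, and the promoter windows printed next are at chr1:85270567-85270716 and chr1:85109854-85110003. Capitals mark the SP1 matches.
C130026I21Rik: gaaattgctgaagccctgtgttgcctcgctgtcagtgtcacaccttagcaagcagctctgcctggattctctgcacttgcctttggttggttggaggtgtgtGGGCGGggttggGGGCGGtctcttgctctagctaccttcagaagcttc
A530032D15Rik: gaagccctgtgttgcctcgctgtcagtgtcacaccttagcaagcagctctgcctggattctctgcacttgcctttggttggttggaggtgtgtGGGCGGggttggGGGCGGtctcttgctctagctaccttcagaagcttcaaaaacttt
With the second shifted by 9 bases, 259 of 291 bases of their 300-base promoters were identical (89%). The array probes themselves were not alike, with 44.2% identity at the best ungapped overlap. C130026I21Rik was at -4.42, -4.06, -4.59 and -4.39 in brain, at -3.57 and -3.98 in eyes, and at 2.47 and 2.62 in bladder, with the 22 other non-brain arrays at -0.19 or lower. A530032D15Rik was at -2.81, -2.79, -3.08 and -3.03 in brain, at -0.87 and -0.72 in bladder, and highest in bone (1.24 and 0.52) and lung (0.63 and 0.44). Bladder was therefore the peak of the one and an ordinary tissue of the other.

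No member passed the test between cortex and cerebellum. In the limma fit over all 30 arrays with Benjamini-Hochberg adjustment, 0 of 80 members passed (adjusted p under 0.05 and a difference of at least 1 on the log2 scale), beside 5.46% of all 21026 tested probes (2.27% higher and 3.20% lower in cerebellum), and 2 members had an unadjusted p under 0.05. Differences of cerebellum minus cortex ran from -0.52 to 0.57, 25 members being higher and 55 lower in cerebellum. Their median of -0.07 turned to 0.02 with the scanner software's log ratio and with the authors' table, so the split has no settled direction, and the smallest adjusted p was 0.178. The rule takes the higher of both brain tissues and so disfavors members that differ between them. Without cerebellum replicate 2, 1 member passed.

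Next, the level of the members was compared among the tissues outside brain, where the rule acts too, because it ranks by the lowest of the 13 tissues and so limits how low any of them may lie. By the F-test of the same fit, 79 of 80 members differed among the 13 tissues, beside 87.9% of tested probes. The SD over the 13 tissue means had a median of 0.77 in the members and 0.62 in all tested probes. The information content over 15 tissues, which is 0 for an even gene and rises with specificity, had a median of 0.31 bits in the members and 0.159 bits in all tested probes; the low brain level that chose the members raises it. The highest tissue was liver in 12 members (15%, against 11.4% of all tested probes), lung in 10 (12.5% against 8.4%), skin in 9 (11.2% against 7.59%), small intestine in 9 (11.2% against 6.64%) and eyes in 0 (against 14.2%). The lowest of the 13 was eyes in 16 (20% against 13.2%), muscle in 16 (20% against 13%) and bone in 8 (10% against 3.64%). In the authors' table it was eyes in 19, muscle in 12 and bone in 4. These shares are a description, with no test. Without fat, large intestine and bone, eyes were highest in 1 and lowest in 19 of the 80, and muscle lowest in 18.

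Eyes, which contain the neural retina, had the smallest median difference from brain, closely followed by muscle. The median over members of the difference of eyes from the brain mean was 1.40, against 1.46 in muscle and 2.23 in small intestine and stomach. Set against the mean of the other 12 tissues, 22 members were lower and 4 higher in eyes, beside 9.26% of tested probes lower and 14.6% higher, and the median difference was -0.53 in the members and -0.07 in all tested probes. Plbd1 fell most, from 4.75 in the other 12 tissues to 2.19 and 1.93 on the eye arrays (difference -2.69 ± 0.20 SE, limma adjusted p = 2.36e-09). Both eye arrays were below every other non-brain array. Col3a1 (-2.34), Agpat2 (-2.16), C130026I21Rik (-2.13), Acp5 (-2.10) and 1810019D21Rik (-1.98) were the next lower ones, with limma adjusted p of 0.00808 or less. Of those higher in eyes, Rab7b, a Rab GTPase of late endosomes, stood at 2.63 and 1.76 (difference 1.90 ± 0.24 SE, limma adjusted p = 3.29e-06). Myl1 (1.80), 2200002D01Rik (1.16) and Elf3 (1.01) were the others, and all 3 lost the call under some alternative: Elf3 under 13, Myl1 under 3 (0.90 on Cy3 alone) and 2200002D01Rik without eyes replicate 1 (0.84). Of the lower ones 1810019D21Rik lost it without eyes replicate 2 (-1.47).

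In muscle 25 members were lower and 9 higher than in the other 12 tissues, beside 16.0% and 10.5% of tested probes, with a median difference of -0.31 in members and -0.12 in all. The member median was -0.19 with the scanner software's log ratio and with the authors' table, and -0.21 with median centring. The clone 2200002D01Rik fell by 4.25 (± 0.21 SE, limma adjusted p = 4.81e-11), and further lower ones were Rab17 (-4.04 ± 0.53 SE, limma adjusted p = 3.75e-06), 1810019D21Rik (-3.17) and Acp5 (-2.54). Rab17 was well above background on 1 of 2 muscle arrays. Ces2g was on neither, so it was at least 4.34-fold lower in muscle by the Cy3 level. The clone 9130008F23Rik followed (-2.13). The 6 with the largest rise in muscle were Kbtbd13, a muscle-specific kelch-family adaptor (2.98 ± 0.19 SE, limma adjusted p = 7.13e-10), Myl1 (2.16), the atypical kinase gene Riok3 (1.60), Acad12 (1.52), Ccdc187 (1.36) and Des (1.28). On Cy3 alone Myl1 was 7.45 and Des 3.49 higher in muscle, their Cy5 level rising with Cy3. Kbtbd13 was above background on 11 of the 24 other arrays and on both muscle arrays. The epithelium markers that are not members had a mean of -0.82 in muscle and 2.07 to 2.75 in kidney, stomach and the intestines. In cortex (-0.28) and cerebellum (-0.44) they lay above muscle and bone (-0.73). Their part was not tested.

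**Figure D4:**
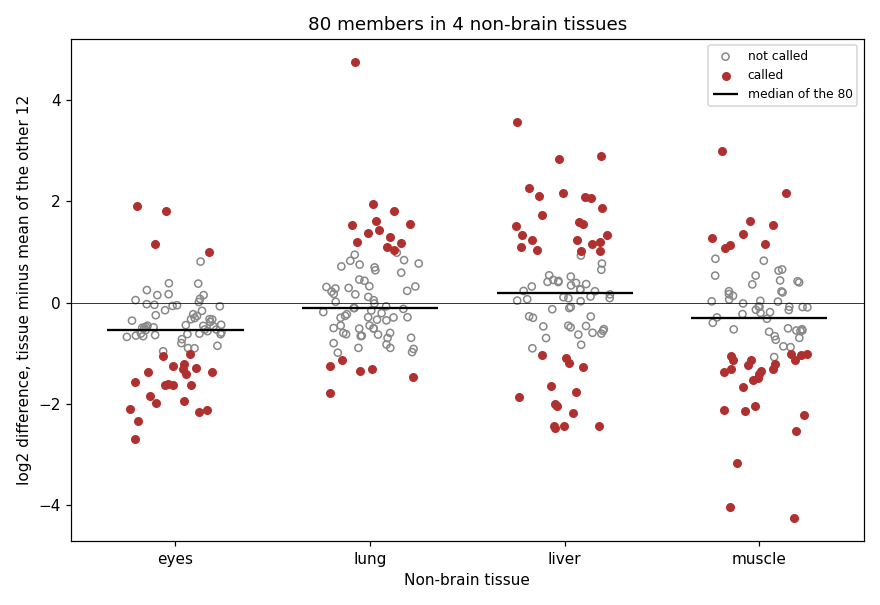
Log2 difference of the 80 members in eyes, lung, liver and muscle from the mean of the other 12 non-brain tissues; filled points passed the test (limma adjusted p under 0.05 and size of at least 1), open points did not, and the line is the median. The medians are -0.53, -0.11 (0.15 with median centring), 0.19 and -0.31, and the highest point is Il18r1 in lung (4.75).

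In liver 23 members were higher and 14 lower, beside 10.9% and 13.8% of tested probes. With median centring in place of loess the split was 14 to 13, and the median of 0.19 became 0.00. That median was 0.40 with the scanner software's log ratio, 0.39 with the authors' table and 0.12 on Cy3 alone. The clone 2010305C02Rik led, at 5.08 and 5.15 in liver against a mean of 1.55 (difference 3.56 ± 0.26 SE, limma adjusted p = 1.56e-09). Rab17 (2.89), 1810019D21Rik (2.84), A730055C05Rik (2.27), Raph1, an Ena/VASP-binding adaptor (2.16), and Acaa2 (2.09 ± 0.13 SE, limma adjusted p = 2.52e-10) followed. The lower ones included 3 matrix genes and desmin beside Rab7b and a clone: Col6a3 (-2.48), Col3a1 (-2.44), Des (-2.43 ± 0.20 SE, limma adjusted p = 8.8e-09), Rab7b (-2.43), Dpt (-2.19) and 9130008F23Rik (-2.04). The difference of Des was -4.46 on Cy3 alone.

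In lung 13 members were higher and 6 lower, beside 11.6% and 7.42% of tested probes. The median difference was -0.11 and turned to 0.15 with median centring, and the split was 18 to 2 with median centring and 12 to 9 with the scanner software's log ratio. Il18r1 was 4.75 (± 0.26 SE, limma adjusted p = 1.02e-10), or 26.9-fold, higher in lung. It was followed by 4930523C07Rik (1.94), Myl12a (1.81), Cflar (1.61), Fmo2 (1.55, and 5.20 on Cy3 alone) and A530032D15Rik (1.53). The lower ones were Myl1 (-1.79, and -2.86 on Cy3 alone), Gucd1 (-1.47), Rab17 (-1.35), Fam83g (-1.31), Apool (-1.25), a subunit of the mitochondrial cristae complex, and 2010305C02Rik (-1.13). Myl1 was well above background on 1 of 2 lung arrays and on 16 of the 24 others. The call on Rab17 (limma adjusted p = 0.0457) was lost in 33 alternatives, that on Fmo2 in 3, and those on Apool, Fam83g and 2010305C02Rik in 2 each. Without lung replicate 2 the calls on Fmo2 (1.13), Apool (-1.12) and 2010305C02Rik (-0.99) were among those lost.

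To place the members among genes of like function, lists chosen by function were compared between brain and the 13 tissues, leaving the members out. Of all tested probes 15.6% were lower and 14.9% higher in brain by the same rule, and their median difference was -0.10, or 0.03 with median centring, under which the median of the members was -1.54. Of 26 genes of the extracellular matrix list, 9 were lower and 1 higher (median -0.71). Adamts2, the procollagen N-proteinase, fell by 2.70 (± 0.21 SE, limma adjusted p = 1.96e-09), Fn1, fibronectin, by 1.78 and Col5a2 by 1.74. Col19a1, a collagen of basement membrane zones, was 2.08 higher in brain. With median centring the split was 4 lower and 2 higher. Of 28 genes for actin and adhesion, 7 were lower and 0 higher (median -0.48), led by Epb41l5 (-3.49), the focal adhesion protein gene Tns1 (-2.77), Actn4 (-1.44) and Lims1 (-1.42). Under median centring 3 were lower and 1 higher. The call on Lims1 was lost under 1 alternative.

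Of 33 leukocyte and innate immune genes, 17 were lower and 1 higher (median -1.0). Ikbke, a kinase of interferon induction, fell by 2.83 (± 0.16 SE, limma adjusted p = 1.1e-11), Cd55 by 2.36, Rcsd1 by 2.15 and Rgs1 by 1.92. Trem2, a receptor of microglia and other macrophages, was 1.58 higher in brain (± 0.15 SE, limma adjusted p = 1.91e-08). Under median centring 10 were lower and 2 higher. Of 11 interferon response genes 3 were lower and 0 higher, among them Sp110 (-2.38) and Tor3a (-1.66). The list of TGF-beta and BMP ligands and receptors had 1 lower, Mstn (-1.22), and 1 higher, Inha (1.94), of 12, with a median of 0.11. Mstn lost its call with scan day (limma adjusted p = 0.0687) or slide (limma adjusted p = 0.252) as a random block and with the tissues of the first 2 scan days alone (difference -0.34).

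Genes of fatty acid and branched-chain oxidation passed in 1 direction. Of 29 genes other than Acaa2, 16 were lower in brain and 0 higher, with a median of -1.17. Acads, the short-chain acyl-CoA dehydrogenase, fell by 2.92 (± 0.18 SE, limma adjusted p = 3.65e-11), the peroxisomal thiolase gene Acaa1b by 2.49, the long-chain enzyme gene Acadl by 2.45 and the medium-chain enzyme gene Acadm by 2.40. Of 24 genes of detoxification and oxidation other than Fmo2, 12 were lower and 0 higher (median -1.01). The glutathione transferase gene Gsta3 fell by 4.45 (± 0.29 SE, limma adjusted p = 1.08e-10), Cbr2, a carbonyl reductase, by 3.85, Ugt1a6a, a glucuronosyltransferase, by 3.24, and Fmo1, of the same family as Fmo2, by 1.98. Median centring left 6 of these lower.

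**Figure D5:**
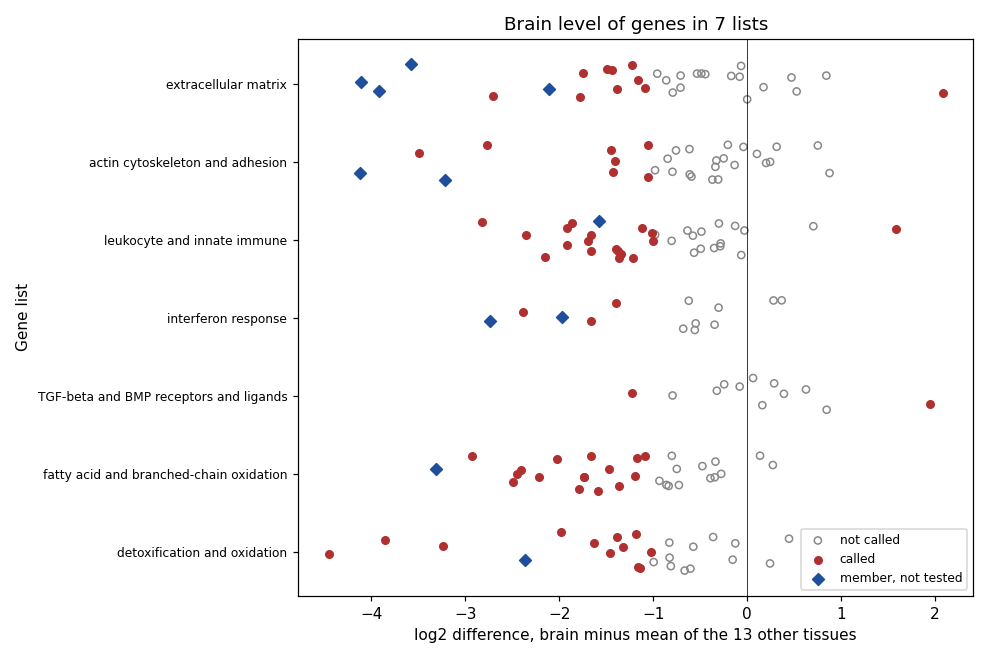
Log2 difference of brain from the mean of the 13 other tissues for the genes of 7 lists; filled red points passed the test, open points did not, and blue diamonds are members, which were not tested. Red points of 6 lists lie on the left apart from Col19a1 and Trem2, and the TGF-beta and BMP list has 1 on each side.

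Features that the rule did not use were set beside the members. A RefSeq promoter (250 bases before to 50 after the start, GRCm38.p6) was found for 62 of the 80 members, 78 promoters in all. Their G+C content had a median of 57.2%, against 58.3% in 5018 promoters of the genes of named probes and 52.7% in all 32841. The ratio of observed to expected CpG had a median of 0.523 in the members, 0.708 in named genes and 0.384 in all. An SP1 match was present in 53.8% of member promoters (52.5% in named genes, 35.7% in all), an ETS match in 15.4% (17.6% and 8.86%), a TATA match in 11.5% (8.65% and 13.6%), a TEAD match in 14.1% (13% and 14.7%) and an AP-1 match in 3.85% (6.28% and 7.81%). These shares describe letters in a window, not binding, and a TATA match was counted at any distance from the start. By position, 21 of the 74 members that could be placed lie on chromosome 1 (28.4%), and so do 20.1% of the named probes with a position, so the symbol lists themselves are rich in that chromosome.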

How the data were processed

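Two-color Agilent arrays of 15 tissues, 2 per tissue, were read. The authors extracted spots with Agilent Feature Extraction 9.5.1.1, and the deposited spot files give mean signals and backgrounds as intensity in scanner units, the authors' log10 ratio, and flags of other kinds. The authors' value table is on a log10 scale and chose the members. Intensities were background-corrected (normexp, offset 50), outlier spots removed (0.0377%), arrays loess-normalized, and log2(Cy3/Cy5) averaged per probe. The 21026 probes that exceeded background on the 2 arrays of some tissue (84.0%) entered limma 3.58.1 in R 4.3.3 with tissue as factor. A call needed a Benjamini-Hochberg adjusted p under 0.05 over all probes and a log2 difference of at least 1. The fit was tested on simulated data. The number of arrays limits the precision. Cy3 levels for bounds were taken after loess and Aquantile. The genes named were the 12 with the largest gap, up to 6 called per direction and comparison, the most even and most varied, up to 4 per functional group or list direction, and the genes at the threshold, and where a named gene falls outside this it was chosen after its values were seen. Members, lists and functional groups were chosen with earlier results of these data known. Probe symbols came from the study's supplementary lists, names only, and promoters from RefSeq (GRCm38.p6). Alternatives covered normalization, filters, slide, scan day, replicate number and leaving out arrays. Replicate numbers are not tied to mice in the labels. Some genes of the lists are counted but not reported by name here.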

Additional observations from a re-analysis of the deposited data

How the results depend on the processing

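Of 73 named differences, 60 kept their call under every alternative that gave a value, 13 lost it under at least 1 and 0 changed direction. Median centring moved the lists most: 6 genes of the extracellular matrix list passed (10 in the main fit), 4 of actin cytoskeleton and adhesion (7) and 6 of detoxification and oxidation (12). Scan day as a random block, and slide as a random block (added after seeing the data), each left 1 gene of the TGF-beta and BMP list (2), Mstn being lost. Leaving out each array in turn gave 0 to 1 members for cortex against cerebellum (1 without cerebellum replicate 2). The ranges were 23 to 27 members for eyes, 15 to 21 for lung, 34 to 37 for liver, 29 to 35 for muscle and 78 to 79 for the 13 tissues. Slide as a fixed block gave no estimate except for cortex against cerebellum (0 members), because the slides are not connected. Values restricted to the first 2 scan days or without fat, large intestine and bone, both added after seeing the data, stayed within 1.5 times of the main counts of members where they gave a value. Muscle has no array on the first 2 scan days. Same-numbered arrays did not deviate together in general (r from -0.25 to 0.34 over 105 pairs of tissues, 33 above 0.1), so the numbers were not taken as pairs. With the replicate block 0 members passed for cortex against cerebellum, 26 for eyes, 19 for lung, 37 for liver, 34 for muscle and 79 for the 13 tissues, and the lists gave 10, 7, 18, 3, 2, 16 and 12 in the order of the report, the counts of the main fit. In brain 10 of 80 members were above background on no array and have only a bound, and 13 on 1 to 3 of 4 arrays.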
